A study of Mus musculus with 20 samples.

Results

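Non-additive effects of Bcor and Dnmt3a loss were measured in megakaryocyte-erythroid progenitors (MEP) of mouse bone marrow. For every gene, the interaction was taken as the mean of the Bcor-/-Dnmt3a-/- libraries minus the Bcor-/- mean, minus the Dnmt3a-/- mean, plus the WT mean, with all values in log2(FPKM + 1), where FPKM are sequenced fragments scaled to transcript length and library size. The sum of the Bcor-/- and Dnmt3a-/- means minus the WT mean is called the additive expectation here, so that the interaction is the distance of the double knockout from it. The 10 MEP libraries of the 20 in the series entered, and 10933 of the 24315 listed genes had a mean of at least 1 FPKM and were tested. There were 3 WT, 3 Dnmt3a-/-, 2 Bcor-/- and 2 Bcor-/-Dnmt3a-/- libraries, all of strain C57BL/6, and LSK cells (Lin-Sca1+Kit+ stem and progenitor cells) of the same mice gave the other 10 libraries. One Bcor-/- library carries the names of 2 mice, while each other library carries 1, and the labels used here name fewer double knockout mice than the study's own text. Floxed alleles were deleted with Mx1-Cre, a recombinase that interferon induces in blood cells and other tissues, after injection of pIpC. The labels of the mutant MEP libraries name Cre and those of WT do not, so an effect of Cre itself would not cancel in the interaction and cannot be told apart from it. The labels give neither age, disease stage nor pIpC treatment of single mice. The study calls the double knockout mice of these comparisons leukemic, so leukemia and the joint loss cannot be told apart here, and it describes a partial Dnmt3a deletion in the single knockout.

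BCOR is a subunit of the non-canonical polycomb complex PRC1.1, which places ubiquitin on histone H2A at CpG-rich promoters, and DNMT3A writes DNA methylation de novo. Both are mutated in myeloid neoplasms. MEP give rise to megakaryocytes, which shed platelets, and to red cell precursors, which fill with globin and heme. If both losses acted on separate steps that multiply, the log2 effects would add up and the interaction would be 0.

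The double knockout departed from the additive expectation at many genes and in both directions. At an unadjusted p under 0.05 of limma's two-sided moderated test and a fold above 1.5, 2930 genes were called, or 26.8% of those tested. Of these, 1587 (14.5%) lay above and 1343 (12.3%) below the additive expectation. When p was adjusted by the Benjamini-Hochberg method, 1635 genes, or 15%, passed. In all 1635 the sign was the same for each of the 36 choices of 1 library per genotype, with 808 (7.39%) above and 827 (7.56%) below. In 645 of the genes above and 587 of the genes below, neither single knockout mean differed from the WT mean by 1.5-fold, and the double knockout mean did. These genes, 39.4% and 35.9% of the 1635, thus passed 1.5-fold in the double knockout mean only. The single knockouts were not tested for this count, and smaller shifts in them remain possible, as at Grb10 and Trp53 below.

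**Figure D1:**
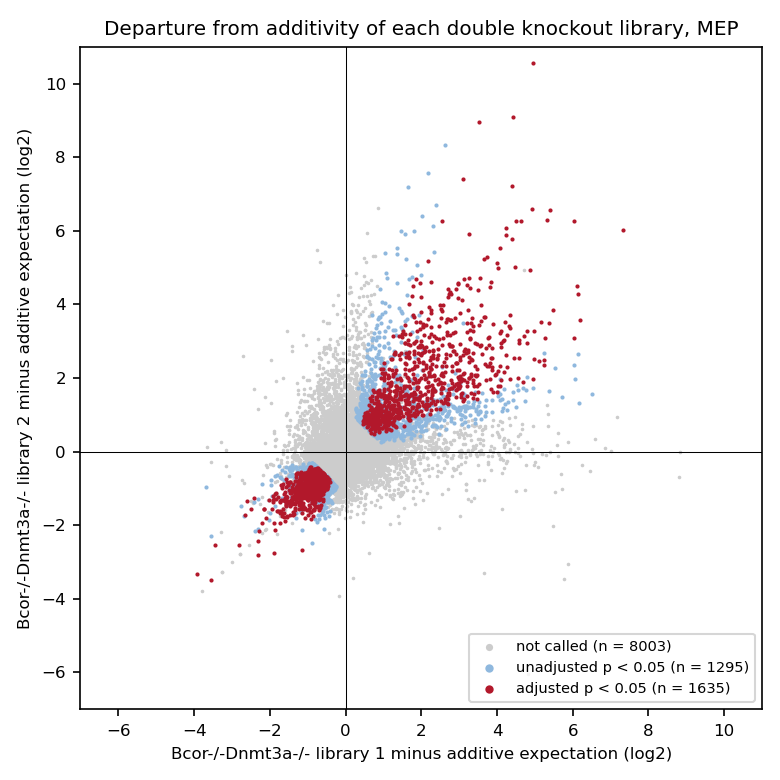
Departure of each Bcor-/-Dnmt3a-/- MEP library from the additive expectation (log2, library 1 on the x axis, library 2 on the y axis), 1 point per tested gene, coloured by the call. The 1635 genes with an adjusted p under 0.05 lie on the same side of 0 in both libraries, and 3291 genes lie on opposite sides in both libraries.

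A gene that is high in the double knockout alone can pass the minimum of 1 FPKM through those libraries only. Of the tested genes 505 averaged under 1 FPKM over the other 8 libraries, and 272 of these were among the 1587 called higher. In the gene lists below they include 7 of 15 macrophage, 6 of 16 T and NK and 4 of 28 interferon-stimulated genes. They also include 3 of 17 B lymphoid, 3 of 16 Bcl2 family and 3 of 7 HoxA and HoxB genes. Medians and counts of these lists are thus not free of this filter.

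The pair of double knockout libraries, named 1 and 2 after their labels, stood apart from each other. Pearson's r between them, taken across genes, was 0.815, against at least 0.971 within the other genotypes, and their relative variance in limma's array weights was 7.51, against 0.336 to 0.875. A fit that gives each genotype its own variance called 2172 genes, 1948 of them among the 2930, and left 69 with the adjusted p, 51 above and 18 below the additive expectation. Where no other fit is named, adjusted p-values come from the fit with 1 common variance. Of those printed for an interaction, the ones of Retnlg, S100a8, Irf7, Alas2, Stat5a, Grb10 and Trp53inp1 stayed under 0.05 with variance by genotype, and those of Gzma, Pf4, Kit, Myc, Trp53, Bid, Cdkn1b, Sdhd and Kdm2b did not, at 0.0564 to 0.23. Leaving out double knockout library 1 gave 4386 calls and leaving out library 2 gave 4156, with 1979 genes called in both in the same direction. The remaining library then had no replicate and was assumed to vary like the other genotypes. All p-values here measure the spread between these few libraries. The balance of directions followed the scaling: quantile normalization moved the median interaction of all genes from 0.05 to -0.16, and 33.8% of the calls then lay above the additive expectation, against 54.2%. Relative depth, read from values under 0.2 FPKM, was 1 to 1.61 times that of WT library 1, and fragment counts are not given.

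The deleted genes did not check the labels. Bcor had 26.9, 21.3 and 22.4 FPKM in WT, 23.3, 25.3 and 23.8 in Dnmt3a-/- mice, 19.5 and 22.4 in Bcor-/-, and 19.6 and 26.7 in the double knockout. Dnmt3a had 6.11, 5.49 and 6.64 FPKM in WT, 5.40, 2.97 and 2.56 in Dnmt3a-/-, and 6.85 and 3.44 in the double knockout. Bcor RNA of Bcor-/- libraries overlapped WT and double knockout and lay under that of Dnmt3a-/-, and Dnmt3a RNA of the double knockout libraries lay on either side of WT. Gene-level FPKM also cover exons outside the deleted ones, so genotypes were taken from the labels. The study, however, calls the deleted Bcor mRNA very unstable and could not detect it by reverse transcription and PCR in Bcor-/- LSK cells. It also describes a complete loss of Dnmt3a in leukemic double knockout mice. The MEP values above show neither, and the reason was not tested. The cells were sorted as Lin-Sca1-Kit+CD34- with low FcgRII/III. MEP markers were present in every library, with Gata1, the master regulator of red cells and megakaryocytes, at 170 to 225 FPKM in the other genotypes and at 71.4 and 239 in double knockout libraries 1 and 2. Kit, the receptor used in the gate, had 62.7 to 83.5 FPKM in the other genotypes and 38.1 and 20.2 in the double knockout. Of genes that this gate should leave out, Itgam, a myeloid integrin, had 0.502 to 2.99 FPKM in the other genotypes and 18.8 and 35.7 in the double knockout. In bulk RNA more cells of a type and more RNA per cell cannot be told apart, and the part of such cells in the results below was not tested.

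Genes of neutrophil granules and the S100 alarmins had the highest median interaction of the 27 lists. Of 20 tested members of this list, 12 were called higher and 1 lower, or 60% and 5% beside 14.5% and 12.3% of all tested genes, and 11 were higher with the adjusted p, beside 7.39%. Their median interaction was 4.51, against 0.05 over all tested genes, with 3.88 in double knockout library 1 and 5.0 in library 2. The summed FPKM of the list ranged from 342 to 1146 over the other 8 libraries and was 7324 and 17016 in the double knockout.

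Retnlg, a resistin-like protein secreted by neutrophils, had 5.70, 9.53 and 7.81 FPKM in WT, 10.1, 7.32 and 6.86 in Dnmt3a-/- mice, 0.662 and 1.47 in Bcor-/-, and 138 and 164 in the double knockout. Bcor-/- libraries were thus the lowest and double knockout libraries the highest, with no overlap. The interaction was 6.15 ± 0.36 (SE, adjusted p = 0.000705, limma). S100a8, whose product pairs with S100A9 as calprotectin, had 244, 120 and 186 FPKM in WT, 213, 117 and 136 in Dnmt3a-/- mice, 108 and 61.7 in Bcor-/-, and 2988 and 6713 in the double knockout. Its interaction was 5.99 ± 0.62 (adjusted p = 0.00306), and S100a9 had 5.81 ± 0.62. S100a6, a calcium-binding S100 protein, was equally high in both double knockout libraries, at 193 and 199 FPKM, against 3.88 to 8.70 in the other 8. Camp, which encodes the antimicrobial cathelicidin, had 12.8 to 39.8 FPKM in the other genotypes and 384 and 1184 in the double knockout. Lcn2, the iron-binding lipocalin of secondary granules, had 4.51 to 14.5 and then 186 and 638.

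The granule genes did not move as a block. Mpo, Elane, Prtn3 and Ctsg, which encode enzymes of primary granules made at the promyelocyte stage, lay below the additive expectation in both double knockout libraries. Elane (neutrophil elastase) had 49.4, 7.08 and 8.86 FPKM in WT, 141, 36.5 and 80.2 in Dnmt3a-/- mice, 112.5 and 74.6 in Bcor-/-, and 36.7 and 88.5 in the double knockout. Its interaction was -2.92, called at the unadjusted p but not with the adjusted one (0.125). Mpo (myeloperoxidase) had 96.1, 10.8 and 69.2 FPKM in WT, 255, 52.7 and 128 in Dnmt3a-/- mice, 263 and 145 in Bcor-/-, and 55.1 and 121 in the double knockout, with an interaction of -2.74 (adjusted p = 0.189). At Elane and Mpo the Dnmt3a-/- libraries overlapped both WT and Bcor-/-, while both Bcor-/- libraries lay above every WT library. Ngp at 5.06, Ltf (lactoferrin) at 4.81, and the collagenase Mmp8 and gelatinase Mmp9 at 4.75 and 4.50, all products of later granules, were above it in both libraries, each with an adjusted p under the threshold. Mmp8 and Mmp9 averaged under 1 FPKM in the other 8 libraries and were tested only through the double knockout. Elane, Mpo, Prtn3, Ctsg, Ngp, Ltf, Mmp8 and Mmp9 were picked out after their values were seen.

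**Figure D2:**
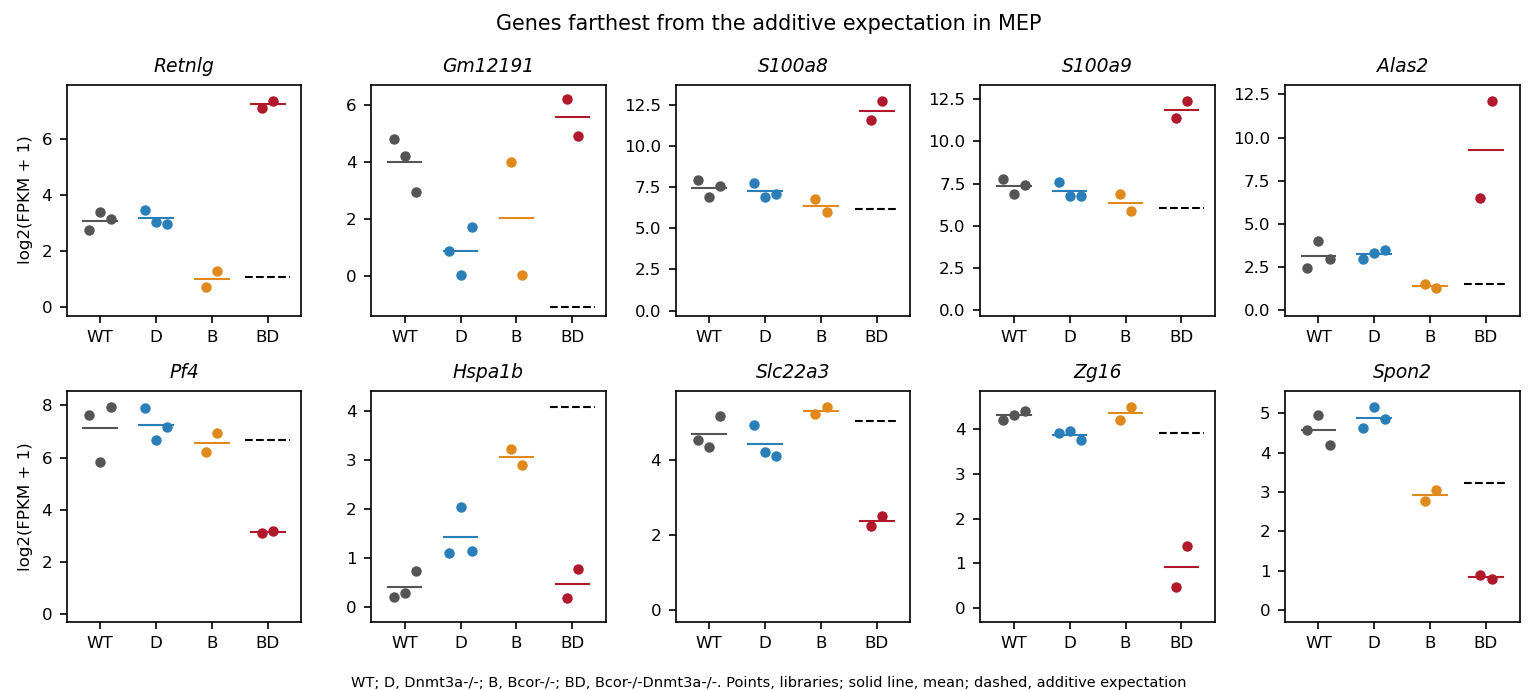
FPKM of the 5 genes ranked highest and the 5 ranked lowest by the smaller departure of both double knockout libraries, as log2(FPKM + 1) per MEP library, with genotype means (solid) and the additive expectation of the double knockout (dashed). Both double knockout points lie on the same side of the dashed line in every panel, and those of Alas2 lie apart, at 88.3 and 4392 FPKM.

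Genes of other mature blood cells were also higher. In the T and NK list 13 of 16 tested genes were called higher and none lower, beside 14.5% and 12.3% of all tested genes, 4 of the 13 averaging under 1 FPKM in the other libraries, with a median interaction of 2.83 that was alike in both double knockout libraries, at 2.77 and 2.87. Gzma, the cytotoxic protease granzyme A, had 1.67 to 4.87 FPKM in WT, 1.07 to 2.17 in Dnmt3a-/- mice, 1.43 and 0.725 in Bcor-/-, and 12.6 and 84.5 in the double knockout. Its interaction was 4.60 ± 0.96 (adjusted p = 0.0176, limma). Cd247, the zeta chain of the T cell receptor complex, had 0.449 to 2.14 FPKM in the other genotypes and 14.1 and 14.0 in the double knockout. Nkg7, a cytotoxic granule protein, and Gata3, a T cell factor, had interactions of 0.65 and 0.62 and were not called, and are given here after their values were seen.

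B lymphoid and macrophage genes set the double knockout mice apart from each other. Of 17 tested B lymphoid genes, 9 were called higher and 1 lower (Dntt, -2.12), beside 14.5% and 12.3% of all tested genes, and the median departure was 4.54 in library 1 and 1.57 in library 2. Igll1, part of the surrogate light chain of pre-B cells, had 4.95 to 62.8 FPKM in the other genotypes, 928 in library 1 and 0.536 in library 2, so that both lay outside the other 8 on opposite sides. Ms4a1, the CD20 antigen of mature B cells, had 0 to 0.270 FPKM in the other 8 libraries and 14.1 and 24.7 in the double knockout. It passed the minimum only through the double knockout, as did Cd22, so their calls add nothing to these values. Of 15 tested macrophage genes 7 (46.7%) were called higher, Adgre1 only through the double knockout, and none lower, with median departures of 4.91 and 0.95. With the uncalled members, 7 of the 15 were tested only through the double knockout, so these medians and the lack of lower calls depend on the filter. C1qa, a complement chain made by macrophages, had 174 FPKM in library 1 and 0.616 in library 2, and it was not called. Ctss, the lysosomal protease cathepsin S, had 5.29 to 14.3 FPKM in the other genotypes and 238 and 75.2 in the double knockout, and was called with an interaction of 4.67 ± 0.65. Dntt, Igll1 and C1qa were chosen after their values were seen. Of 10 mast cell, basophil and eosinophil genes 4 (40%) were called higher (Prss34, Gzmb, Il6ra and Csf2rb), with Prss34, a basophil protease, at 0.179 to 1.38 FPKM against 5.12 and 16.5, tested only through the double knockout.

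Further members of the gene families that stood among the highest genes were looked at after their values were seen. Of 8 tested Gimap genes, GTPases of lymphocytes, 8 were called higher, 6 of them with the adjusted p, beside 14.5% and 7.39% of all tested genes, with Gimap4 at 2.06 to 7.29 FPKM in the other genotypes and 298 and 97.8 in the double knockout. Of 9 Ms4a genes 6 were called higher, each with the adjusted p, among them Ms4a1 and Ms4a6d, which were tested only through the double knockout, and of 25 H2 genes, which encode MHC proteins and whose near-identical copies make single values uncertain, 16 were higher (7 with the adjusted p), H2-DMb2 only through the double knockout, and none lower. Ifitm6, an interferon-induced membrane protein of myeloid cells, had 1.01 to 5.63 FPKM in the other genotypes and 50.4 and 163 in the double knockout, whereas its relative Ifitm2 had 252 to 308 FPKM and then 164 and 157, below the additive expectation by 0.79. Gm12191, a predicted gene, also ranked high at 73.5 and 28.9 FPKM, but its values ran from 0.00128 to 27.1 within the other genotypes, and its additive expectation of -0.536 FPKM is below any possible level.

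Interferon-stimulated genes, the antiviral program that type I interferon switches on through ISGF3, were higher in part. Of 28 tested members 17 were called higher and none lower, beside 14.5% and 12.3% of all tested genes, 12 of the 17 with the adjusted p, beside 7.39%, and 23 lay above the additive expectation in both double knockout libraries, as did 35.5% of all tested genes. The median departure was 2.44 in library 1 and 0.91 in library 2. Ifit1, an inhibitor of viral RNA translation, had 0.418, 0.522 and 0.831 FPKM in WT, 0.275, 0.306 and 0.151 in Dnmt3a-/- mice, 0.408 and 0.467 in Bcor-/-, and 8.69 and 5.91 in the double knockout. No other genotype reached 1 FPKM, so Ifit1, with an interaction of 2.86 ± 0.35, was tested only through the double knockout, as was Ifit3. Irf7, a transcription factor that amplifies interferon production, had 4.67 to 12.7 FPKM in the other genotypes and 65.7 and 28.9 in the double knockout (interaction 3.53 ± 0.48, adjusted p = 0.00459, limma). Rsad2 (viperin) differed widely between the double knockout mice, at 16.9 and 354 FPKM against 1.27 to 2.51 elsewhere, with an interaction of 5.25 ± 1.37. Oas1a, Gbp2 and Ifi44 were high in library 1 at 18.8, 63.4 and 8.94 FPKM, near the other genotypes in library 2 at 1.96, 3.03 and 0.273, and were not called, which was noted after their values were seen.

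Promoters of 3 called interferon-stimulated genes are shown, since the element that ISGF3 binds is well known. RefSeq start sites on GRCm38.p6 were matched for 9 of the 12 members with an adjusted p under 0.05, and the 250 bases before each start were searched on both strands, allowing overlaps, for TTTC followed after 2 free bases by TTTC. It was found for Ifit1, Isg15, Oas3 and Rsad2, or 4 genes, in 978 of all 32851 promoters of this length (2.98%), and in 3.46% of all genes. Capitals mark the matches, which describe letters and not binding, and the build is not that of the deposited values.
Ifit1, chr19:34640639-34640888, plus strand: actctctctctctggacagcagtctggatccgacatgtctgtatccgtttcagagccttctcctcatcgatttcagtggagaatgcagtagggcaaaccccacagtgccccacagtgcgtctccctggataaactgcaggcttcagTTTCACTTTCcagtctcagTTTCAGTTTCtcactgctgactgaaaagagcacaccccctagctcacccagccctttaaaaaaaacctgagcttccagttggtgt
Rsad2, chr12:26456453-26456702, minus strand: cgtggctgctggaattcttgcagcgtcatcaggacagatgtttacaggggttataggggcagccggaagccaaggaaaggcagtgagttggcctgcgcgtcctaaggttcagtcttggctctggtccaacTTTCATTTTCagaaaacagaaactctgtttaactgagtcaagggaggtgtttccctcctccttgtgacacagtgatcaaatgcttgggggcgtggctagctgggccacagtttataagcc
Isg15, chr4:156200819-156201068, minus strand: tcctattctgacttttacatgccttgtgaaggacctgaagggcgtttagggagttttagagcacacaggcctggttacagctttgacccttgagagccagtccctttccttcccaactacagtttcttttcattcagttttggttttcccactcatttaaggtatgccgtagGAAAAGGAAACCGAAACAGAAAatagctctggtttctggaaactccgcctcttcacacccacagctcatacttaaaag
Ifit1 holds 2 matches. Isg15 holds 3 that overlap, beside an interaction of 4.41 and 31.7 and 430 FPKM in the double knockout. Irf7 holds none in this window.

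Red cell genes lay on both sides of the additive expectation, according to the mouse. Alas2, the erythroid enzyme that starts heme synthesis, had 4.45, 15.2 and 6.90 FPKM in WT, 6.77, 9.03 and 10.2 in Dnmt3a-/- mice, 1.91 and 1.49 in Bcor-/-, and 88.3 and 4392 in the double knockout. Bcor-/- was lowest and both double knockout libraries highest, and the interaction was 7.75 ± 1.84 (adjusted p = 0.0261, limma). Slc4a1, the band 3 anion exchanger of the red cell membrane, had 7.78 and 2.72 FPKM in Bcor-/-, 11.7 to 32.7 in WT, and 123 and 3195 in the double knockout. Hbb-b2, a beta globin, followed with 705 and 30050 FPKM against 36.1 to 177 elsewhere, an interaction of 6.24 ± 1.80. Near-identical globin genes share reads, and Hbb-b1 is listed at 0 in library 2, so single globins are uncertain. Of 4 tested genes of the globin list, Hbb-b2 and Hba-a1 were called higher, or 50% beside 14.5% of all tested genes, the latter not with the adjusted p (0.0793). Globins held 0.836% of all FPKM in library 1 and 13.6% in library 2, against at most 0.151% in the other libraries.

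Most other members of the heme and red cell membrane lists did not follow Alas2 and Slc4a1 in library 1. There 1 of 9 heme enzymes and 5 of 17 red cell membrane genes lay above the additive expectation. The other 8 heme enzymes were not called, which leaves 11.1% called higher beside 14.5% of all tested genes, and the list's median departure was -0.51 in library 1 and 1.89 in library 2. Fech, which inserts iron into heme, had 82.3 FPKM in library 1, just under the 83.0 to 133 of the other genotypes, and 1290 in library 2. Of 17 red cell membrane genes only Slc4a1 was called, or 5.88% higher beside 14.5% and none lower beside 12.3% of all tested genes, with median departures of -0.65 and 2.04. Erythroid transcription factors and receptors had none of 20 called higher and 3 lower (Stat5a, Ldb1 and Gfi1b), or 15% against 12.3% of all tested genes, with medians of -0.60 and 0.25. Stat5a, a signal transducer of the erythropoietin receptor, was alike in both mice, at 53.8 to 57.3 FPKM in WT, 59.0 to 61.6 in Dnmt3a-/- mice, 62.3 and 61.7 in Bcor-/- and 27.3 and 27.5 in the double knockout. It lay below the additive expectation by an interaction of -1.28 ± 0.11 (adjusted p = 0.00224). Tfr2, a transferrin receptor that tunes erythropoietin signalling, had 58.0 to 93.7 FPKM in the other genotypes and 16.5 and 21.9 in the double knockout, an interaction of -1.74 ± 0.23. Steap3, the reductase of endosomal iron, had 74.8 to 116 and then 41.7 and 34.3. Of 14 iron genes these 2 and Pcbp1 were called lower and Slc25a37, the mitochondrial iron carrier, higher (3.45), or 21.4% and 7.14% beside 12.3% and 14.5% of all tested genes. Fech, Gfi1b and Slc25a37 were chosen after their values were seen.

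The promoter of Alas2 is shown for the GATA site, since GATA1 is known to act there. Of the 30 tested genes of the globin, heme and red cell membrane lists 20 were matched in RefSeq, and AGATAA on either strand stood in the 250 bases of 5 of them (Alas2, Hbb-bs, Icam4, Kel and Rhd) and in 9.99% of all promoters, or 11.4% of all genes. Capitals mark it as the minus-strand match TTATCT.
Alas2, chrX:150547167-150547416, plus strand: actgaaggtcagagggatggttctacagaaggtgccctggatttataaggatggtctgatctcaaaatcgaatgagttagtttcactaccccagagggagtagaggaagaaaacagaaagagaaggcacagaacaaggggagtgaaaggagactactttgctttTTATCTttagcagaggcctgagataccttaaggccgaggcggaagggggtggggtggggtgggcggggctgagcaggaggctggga

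Megakaryocyte and platelet genes lay mostly below the additive expectation. Of 20 tested members 14 (70%) were below it in both double knockout libraries, against 34.4% of all tested genes, and the median interaction was -0.90. The 3 members called lower, or 15%, were near the 12.3% of all tested genes, and none was higher. Pf4, platelet factor 4, ranked lowest by the smaller departure of both double knockout libraries, with 199, 56.5 and 243 FPKM in WT, 238, 100 and 143 in Dnmt3a-/- mice, 72.5 and 122 in Bcor-/-, and 7.68 and 8.09 in the double knockout. Both double knockout libraries were far below the other 8, with an interaction of -3.53 ± 0.85 (adjusted p = 0.027, limma). Gp5, a subunit of the von Willebrand factor receptor, had 10.9 to 16.5 FPKM in WT, 10.8 to 17.9 in Dnmt3a-/- mice, 23.6 and 22.8 in Bcor-/-, and 6.87 and 6.55 in the double knockout. Its Bcor-/- libraries were thus above and its double knockout libraries below every other one (interaction -1.65 ± 0.33). Itga2b, which forms CD41, had 5.47 FPKM in library 1 and 33.4 in library 2 and was not called.

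Among stem and progenitor genes 1 of 22 was called higher (Ly6a, 2.32, tested only through the double knockout) and 2 lower (Kit and Esam, the latter at -1.42), with a median of -0.68. These are 4.55% and 9.09%, under the 14.5% and 12.3% of all tested genes, and Kit was the only member with an adjusted p under 0.05 (interaction -1.14 ± 0.32, adjusted p = 0.0464, limma). Other genes that ranked lowest had different levels in the single knockouts. Grb10, an adaptor that restrains growth factor receptors, had 17.9 to 19.7 FPKM in WT, 15.9 to 18.8 in Dnmt3a-/- mice, 25.4 and 25.0 in Bcor-/-, and 3.89 and 2.47 in the double knockout (interaction -2.57 ± 0.22, adjusted p = 0.00224). Slc22a3, an organic cation transporter, had 19.4 to 34.6 in WT, 36 and 41.4 in Bcor-/-, and 3.71 and 4.72 in the double knockout. In both genes Bcor-/- libraries were highest and double knockout libraries lowest. Spon2 and Khdrbs3 were already low in Bcor-/-, and lower still in the double knockout than both effects add up to. Spon2, a secreted matrix protein, had 17.2 to 29.9 FPKM in WT, 5.85 and 7.25 in Bcor-/-, and 0.865 and 0.724 in the double knockout, against an additive expectation of 8.33. Khdrbs3, an RNA-binding regulator of splicing, had 6.90 to 9.98 FPKM in WT, 3.59 and 3.12 in Bcor-/-, and 0.104 and 0.217 in the double knockout. Zg16, Plvap, Sh2d4a and Slc7a4 completed the 10 lowest, with interactions of -2.99, -2.07, -2.33 and -1.92.

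Few called genes showed a single-knockout change that was missing from the double knockout. Among the 1635 genes with an adjusted p under 0.05, 10 were raised over 1.5-fold in the Bcor-/- mean while the double knockout mean stayed within 1.5-fold of WT, and 10 were lowered in the same way. For Dnmt3a-/- the counts were 2 and 3, among them Hspa1b and Rpl34 raised and Mcts2 and Ptbp2 lowered. These counts were made after the values were seen and share the WT libraries with the interaction, so they are descriptions. Srebf1, the regulator of fatty acid synthesis, had 40.2, 44.9 and 38.5 FPKM in WT, 74.6 and 67.2 in Bcor-/-, and 30.3 and 29.9 in the double knockout. Scd2, a fatty acid desaturase, had 43.7 to 57.1 in WT, 173 and 114 in Bcor-/-, and 53.6 and 41.5 in the double knockout. Myc, the growth regulator, had 67.6 to 95.7 FPKM in WT, 144 and 142 in Bcor-/-, and 69.4 and 41.0 in the double knockout (interaction -1.44 ± 0.32, adjusted p = 0.0214, limma). In these 3 genes Bcor-/- libraries were above all others. Spry4, a feedback inhibitor of receptor tyrosine kinases, had 1.26 to 1.85 FPKM in WT, 0.13 and 0.0868 in Bcor-/-, and 2.59 and 1.27 in the double knockout, against an additive expectation just below 0.

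**Figure D3:**
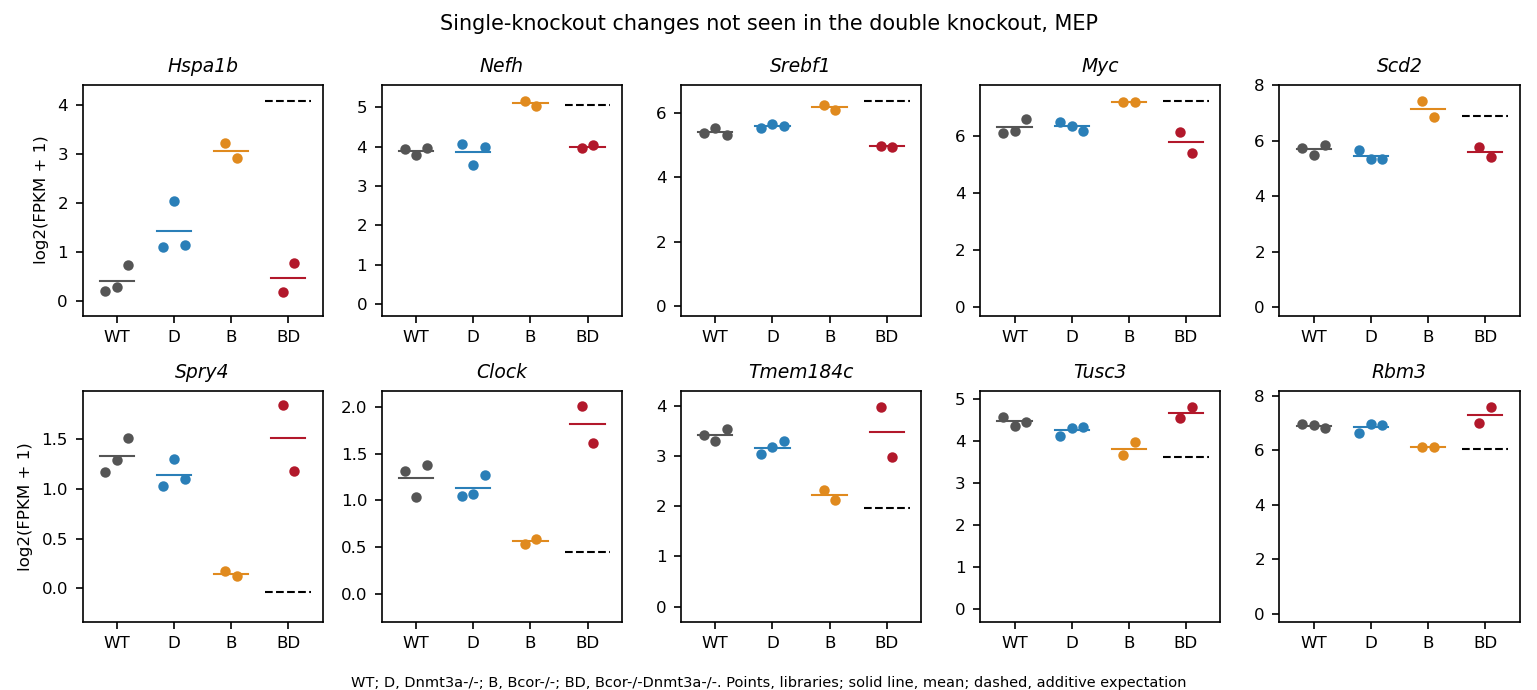
FPKM of 10 genes whose change in Bcor-/- was not seen in the double knockout, as log2(FPKM + 1) per MEP library, with genotype means (solid) and the additive expectation (dashed). The upper row holds genes raised in Bcor-/- and the lower row genes lowered there, and the double knockout mean lies within 1.5-fold of the WT mean in every panel.

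Chaperones were examined because Hspa1b ranked among the lowest genes, and this list was made after the values were seen. Of 38 tested heat shock proteins and their regulators 11 were called lower with the adjusted p, beside 7.56% of all tested genes, and none higher, and 1 (Dnajb6, 0.71) was called higher at the unadjusted p. Their median interaction was -0.087, with median departures of -0.46 and 0.093, and 6 members were above and 15 below the additive expectation in both libraries. Hspa1b, an inducible HSP70, had 0.156, 0.217 and 0.666 FPKM in WT, 1.16, 3.15 and 1.20 in Dnmt3a-/- mice, 8.39 and 6.54 in Bcor-/-, and 0.135 and 0.708 in the double knockout. Single knockouts were above every WT library, and the double knockout overlapped WT, with an interaction of -3.62 ± 0.50. It passed the minimum of 1 FPKM only through Bcor-/-, where it is high, so its call adds nothing to these values. Hspa1b has a near-identical copy, which makes its level uncertain. Hsph1, an HSP110 that recharges HSP70, had 52.7 to 65.9 FPKM in WT, 142 and 130 in Bcor-/-, and 31.9 and 39.7 in the double knockout. Hsp90aa1 had 338 to 360 in WT, 545 and 462 in Bcor-/-, and 196 and 281 in the double knockout. Other members differed less between WT and Bcor-/-: Hspd1, the mitochondrial HSP60, had 378 to 397 FPKM in WT, 448 and 418 in Bcor-/-, and 207 and 221 in the double knockout, and Hsp90ab1 had 1819 to 2068, then 2273 and 2155, then 1234 and 1188. Hsf1, the transcription factor of the heat shock response, had 22.4 to 25.6 FPKM in WT, 28.9 and 29.8 in Bcor-/-, and 17.3 and 18.1 in the double knockout (interaction -0.91 ± 0.14).

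The promoters of Hspa1b and Hspe1 are shown for the heat shock element that HSF1 binds, searched as GAANNTTC, which reads the same on both strands and is in capitals. Of the 11 lower members 6 were matched in RefSeq and 3 held it, Hspa1b, Hspd1 and Hspe1, as did 6.69% of all promoters and 7.73% of all genes. Hspd1 and Hspe1 face away from each other, and the match at chr1:55088064-55088071 is 1 site in both windows.
Hspa1b, chr17:34959239-34959488, minus strand: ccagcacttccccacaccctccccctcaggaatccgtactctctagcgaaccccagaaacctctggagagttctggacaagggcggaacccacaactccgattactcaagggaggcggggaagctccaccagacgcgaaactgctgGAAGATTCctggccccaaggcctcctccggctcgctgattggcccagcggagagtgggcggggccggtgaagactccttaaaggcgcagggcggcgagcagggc
Hspe1, chr1:55087898-55088147, plus strand: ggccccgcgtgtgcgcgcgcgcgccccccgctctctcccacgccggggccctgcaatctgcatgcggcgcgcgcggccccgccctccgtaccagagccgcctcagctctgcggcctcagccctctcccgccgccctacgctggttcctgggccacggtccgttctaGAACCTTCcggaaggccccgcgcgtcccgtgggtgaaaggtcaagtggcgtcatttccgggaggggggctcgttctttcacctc
Hspe1, the HSP10 partner of HSP60, had 234 to 252 FPKM in WT and 147 and 126 in the double knockout.

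In the p53 pathway 6 of 21 tested genes were called higher and 1 lower, or 28.6% and 4.76% beside 14.5% and 12.3% of all tested genes, with median departures of 0.06 in library 1 and 1.27 in library 2. The gene called lower was Trp53 itself, with 114, 139 and 139 FPKM in WT, 154, 146 and 147 in Dnmt3a-/- mice, 154 and 159 in Bcor-/-, and 76.5 and 90.3 in the double knockout. Its single knockouts were above and its double knockout libraries below every WT library, with an interaction of -1.10 ± 0.17 (adjusted p = 0.00664, limma). Trp53inp1, a p53 target that promotes autophagy and cell death, had 2.37 to 4.02 FPKM in the other genotypes and 31.3 and 48.5 in the double knockout, an interaction of 3.55 ± 0.29 (adjusted p = 0.00224). Sesn1, a p53-induced brake on mTOR, had 16.8 to 20.9 FPKM elsewhere and 39.9 and 61.5 in the double knockout. Mdm2, the ligase that degrades p53, had 23.6 FPKM in library 1 and 54.0 in library 2 against 20.6 to 24.3 elsewhere and was not called (interaction 0.81), though it passed with variance by genotype and without library 1 (1.39).

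Of 16 Bcl2 family genes 4 were called higher (Bcl2l1, Mcl1, Bcl2a1b and Bmf) and 2 lower, or 25% and 12.5% beside 14.5% and 12.3% of all tested genes. Bcl2a1b and Bmf were tested only through the double knockout. Bid, which relays death receptor signals to mitochondria, had 43.3 to 49.4 FPKM in the other genotypes and 29.0 and 24.9 in the double knockout (interaction -0.78 ± 0.14, adjusted p = 0.012, limma). Bak1, a pore-forming effector, had 56.8 to 73.0 and then 45.4 and 38.8 (interaction -0.64 ± 0.17), and lost its call without WT library 3, Bcor-/- library 1 or double knockout library 2, at -0.56, -0.58 and -0.53. Of the list of genes that the study names, to which Bax was added here, the others were not called, with interactions of -0.42 for Bax, 0.89 for Bcl2, -0.62 for Gata1, -1.74 for Gata2, -1.01 for Klf1 and -0.51 for Parp1. Bcl2, Gata1, Gata2 and Klf1 exceeded the fold of 1.5 and missed the call on p alone. Their standard errors were wide, at 0.55, 0.57, 0.83 and 0.54. Klf1 passed the unadjusted threshold after quantile normalization (-1.11) and with variance by genotype. It was also called without double knockout library 2, as were Gata1 (-1.48) and Gata2 (-2.73), Parp1 was called without library 1 (-1.12), and Gata2 (-2.06) and Bcl2 (1.24) without WT library 3 and WT library 2. Gata1 and Parp1 had opposite signs in both double knockout libraries. Gata2, the early progenitor factor, had 6.98 FPKM in library 1 and 30.2 in library 2 against 18.6 to 53.8 elsewhere. Apart from Bax, the study named these genes from LSK or MEP data of this series. It reports the changes of GATA factors and Parp1 for LSK only. LSK and MEP came from the same mice, so the count of 3 lower of 10 is not independent evidence.

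Of 30 DNA replication and mitosis genes none was called higher, against 14.5% of all tested genes. The 4 called lower (Mcm5, Mcm7, Cdt1 and Gins2), none with the adjusted p, are 13.3%, near the 12.3% of all tested genes, and Mcm6 and Pcna, the most abundant members, had interactions of -0.34 and -0.05. Of 9 CDK inhibitors and D cyclin genes 3 were higher (Cdkn1b, Cdkn2c and Cdkn2d) and 1 lower (Cdk4), or 33.3% and 11.1% beside 14.5% and 12.3%. Cdkn1b, the inhibitor p27, had 12.2 to 16.2 FPKM elsewhere and 29.5 and 113 in the double knockout (interaction 2.2 ± 0.61, adjusted p = 0.0447, limma). Of 23 genes of mitophagy and autophagy 5 (21.7%, beside 14.5%) were called higher (Map1lc3b, Gabarap, Pink1, Tfeb and Ube2l6) and none lower, beside 12.3%. Tfeb, the regulator of lysosomal genes, had 2.66 to 3.85 FPKM against 13.0 and 7.37. In the AP-1 and immediate early list 1 of 22 was higher (Dusp2, 1.34) and 1 lower (Myc), or 4.55% each, under the 14.5% and 12.3%. The median departures of this list were -1.34 and 0.86.

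Most genes of oxidative phosphorylation and of the ribosome lay modestly below the additive expectation. Of 35 genes of oxidative phosphorylation 8 (22.9%) were called lower and none higher, 27 were below in both double knockout libraries, and the median was -0.32. Sdhd, a subunit of succinate dehydrogenase, had 285 to 355 FPKM in the other genotypes and 181 in both double knockout libraries (interaction -0.68 ± 0.16, adjusted p = 0.0255, limma). Of 40 cytosolic ribosomal proteins 7 (17.5%) were called lower and none higher, with 28 below in both and a median of -0.40. Over all tested genes 12.3% were called lower and 34.4% were below in both. Rpl14 had 405 to 542 FPKM elsewhere and 281 and 303 in the double knockout. Of 22 glycolysis enzymes 2 were called higher (Pfkp and Bpgm) and 6 lower, or 9.09% and 27.3% beside 14.5% and 12.3% of all tested genes. Among the latter were Pklr, the red cell pyruvate kinase, at 125 to 247 FPKM against 59.7 and 87.6, and Ldha at 595 to 694 against 362 and 337. The median interaction of the glycolysis list was 0.35, its median departures by library were -0.083 and 0.081, and it turned to -0.09 after quantile normalization, while those of the oxidative phosphorylation and ribosomal lists kept their sign.

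Among chromatin genes Kdm2b, the subunit that brings PRC1.1 to CpG islands, had 26.4 to 30.7 FPKM in WT and 30.7 to 33.0 in Dnmt3a-/- mice. It had 34.2 and 37.0 in Bcor-/-, and 21.9 and 20.7 in the double knockout. Bcor-/- was highest and the double knockout lowest without overlap (interaction -0.86 ± 0.14, adjusted p = 0.00863, limma). Of 11 genes in the PRC1.1 list 1 was called higher and 2 lower (Kdm2b and Ring1). This share of 27.3% stood beside 26.8% of all tested genes. The gene called higher, Bcl6, encodes an interaction partner of BCOR. Of 24 other polycomb genes 3 were called higher, among them Ezh1 and Cbx7, and 2 lower (Cbx6 and Pcgf6). These are 12.5% and 8.33%, under the 14.5% and 12.3% of all tested genes. Ezh1, the catalytic subunit of PRC2 in resting cells, had 6.57 to 7.70 FPKM elsewhere and 13.5 and 18.2 in the double knockout. Of 16 DNA methylation genes 1 was higher (Gadd45b, 1.70) and 1 lower (Mbd3, -0.79), or 6.25% each, also under those shares. The medians of these 3 lists were 0.07, 0.09 and 0.17 and turned below 0 after quantile normalization. None of the 7 tested HoxA and HoxB genes was called, beside 26.8% of all tested genes, and 3 of the 7 were tested only through the double knockout. Hoxa9, a stem cell and leukemia gene, had 3.17 to 6.38 FPKM in WT, 12.2 and 14.2 in Bcor-/-, and 4.39 and 8.75 in the double knockout, so that both double knockout libraries lay between these groups or within WT (interaction -0.78 ± 0.44, adjusted p = 0.252). After quantile normalization Hoxa9 passed the unadjusted threshold at -1.25, as it did without WT library 3 (-1.04) or double knockout library 2 (-1.21).

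**Figure D4:**
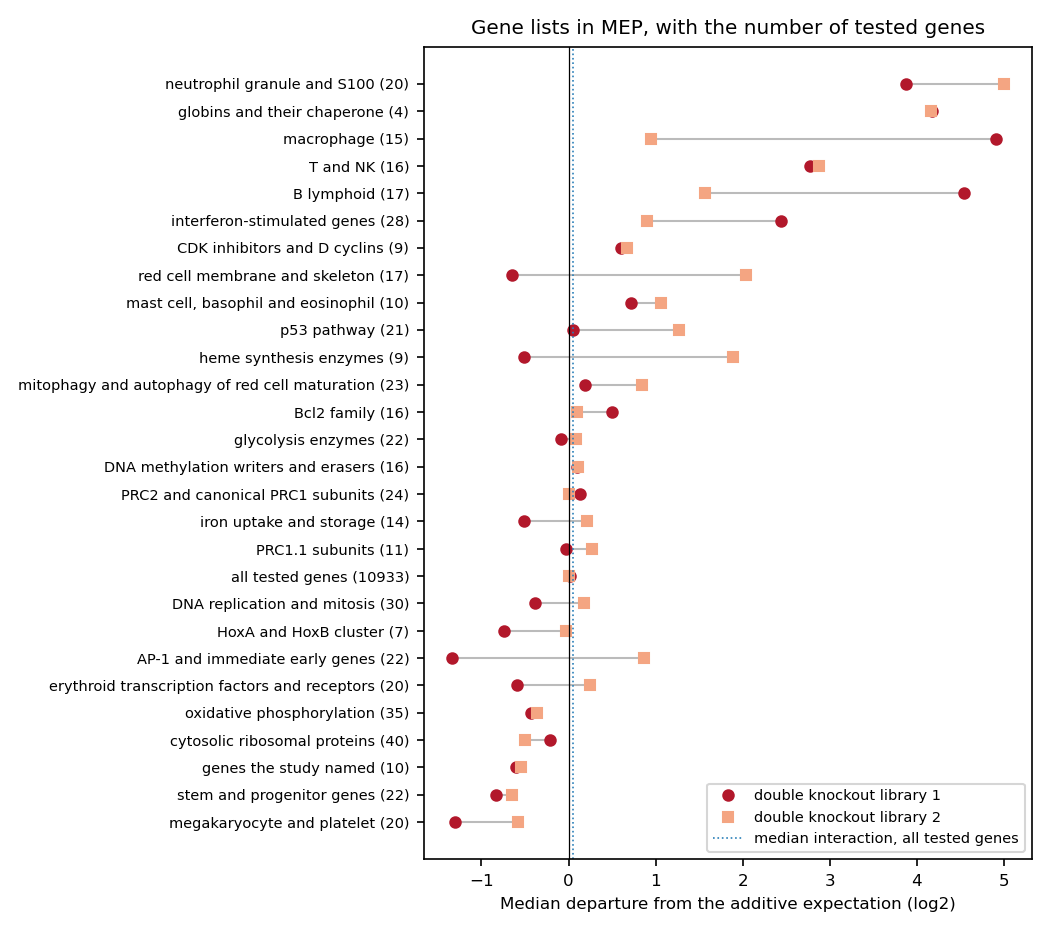
Median departure from the additive expectation (log2, x axis) of each gene list in both double knockout MEP libraries, with the number of tested genes in brackets (Bax was added to the genes the study named) and the median interaction of all tested genes as a dotted line. T and NK and oxidative phosphorylation lists lie close together in both libraries, while heme, red cell membrane and AP-1 lists lie on opposite sides of 0.

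The same contrast was set beside LSK cells of the same mice, through the difference LSK minus MEP within each mouse. At the unadjusted p and a fold above 1.5 the interaction differed in 2200 of 12112 genes (18.2%). At the adjusted p it differed in 2 (0.0165%), Tmem109 and Ifi30, which are named for this count after their values were seen. With both the adjusted p and variance by genotype it differed in 0 genes. Ifi30, a lysosomal thiol reductase, was near additivity in MEP (0.03 ± 0.23) and above it in LSK (3.03 ± 0.33), with 121 and 189 FPKM in double knockout LSK against 12.5 to 32.6 in the other genotypes (adjusted p = 0.03, limma). Tmem109 had -0.65 in MEP and 1.07 in LSK. Retnlg had an interaction of 3.35 ± 0.67 in LSK, and the difference of -2.79 ± 0.72 did not pass the adjusted threshold (0.116). S100a8 had 1.18 ± 0.91 in LSK, where Bcor-/- libraries had 2796 and 2648 FPKM and double knockout libraries 3340 and 2493 (difference -4.81 ± 1.40, adjusted p = 0.141). Levels were compared within each cell type's own table, since scaling between the tables is not given. Pf4 had -3.52 ± 0.65 in LSK and a difference of 0.0037 ± 1.13, a standard error too wide to call the cell types alike. Alas2 had 6.37 ± 0.73 in LSK and Ifit1 0.46 ± 0.67, with differences of -1.38 ± 1.22 and -2.39 ± 0.54 (adjusted p = 0.554 and 0.0992).

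**Figure D5:**
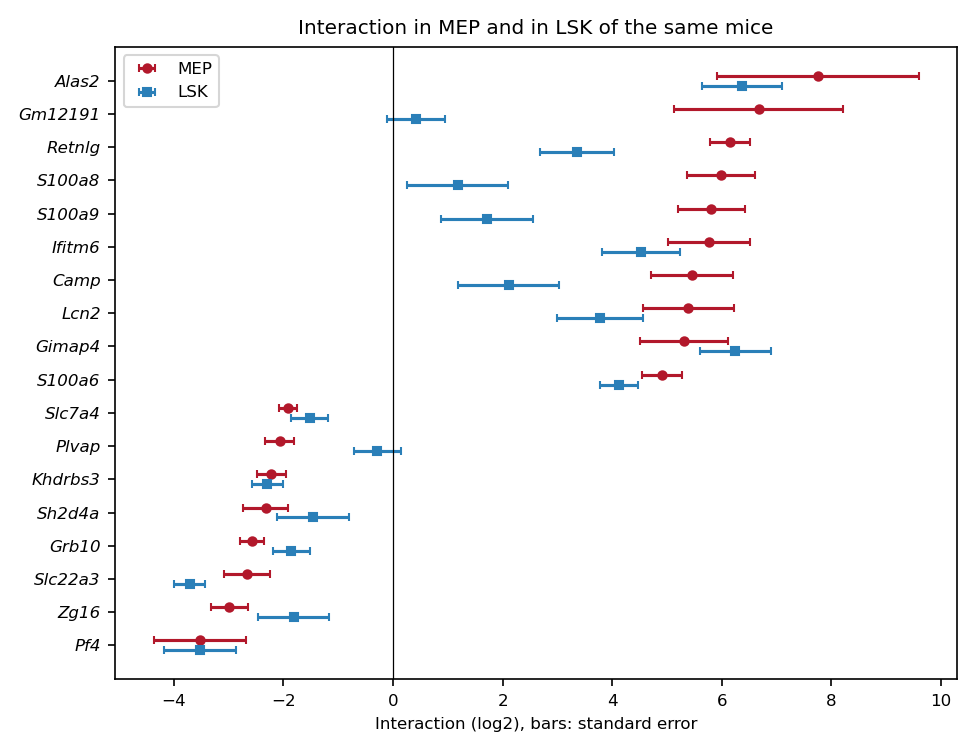
Interaction (log2, with standard errors) in MEP and in LSK cells of the same mice for 18 of the 20 genes ranked highest or lowest in MEP, the remaining 2 falling under 1 FPKM in LSK. None of the differences between the cell types had an adjusted p under 0.05.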

How the data were processed

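RNA of sorted MEP and LSK cells was sequenced as polyA libraries, and 1 table of FPKM per cell type was deposited by the authors, with 24315 genes and 10 libraries each. The submitters' processing notes name STAR 2.5.1b, SAMtools 1.9, Cufflinks 2.2.1 and mm9, with no role given. Scaling between libraries is not given in the sources used here. Values of 0 can be failed estimates. Counts are not given, so no counting error was computed. Library names were matched to the labels, which gave genotype and mouse.

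In R 4.3.3 with limma 3.58.1, log2(FPKM + 1) was fitted, for genes averaging 1 FPKM or more, with 1 mean per genotype over all 4 genotypes, and the interaction contrast was tested with a mean-variance trend. Folds are on this scale, which understates changes of low genes. Calls needed p under 0.05 unadjusted and a fold above 1.5, and Benjamini-Hochberg adjustment ran over all tested genes. LSK and MEP were compared on the difference within each mouse. The procedure was tested on simulated data in which all libraries of a gene had the same spread. The double knockout libraries varied more than the others, so that test could not check the calls under unequal variance. Genes named are the 10 highest and 10 lowest with an adjusted p under 0.05, a fold above 1.5 and the same sign in all 36 choices, ranked by the smaller departure of both double knockout libraries, up to 4 members of each of 27 lists by the same ranking, or else the 2 most abundant, and the genes the study names, with Bax added. The members and lists were chosen with earlier results of these data known. Alternatives were a pseudocount of 0.1, no filter or a minimum of 5 FPKM, quantile normalization, median centring, no trend, variance by genotype, the adjusted p, a fold of 2, a replicate block, additivity on the FPKM scale, and leaving out each library. Promoter sequences are RefSeq's for GRCm38.p6, and plots were made in matplotlib 3.10.9 under Python 3.11.15. Some results are not reported here.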

Additional observations from a re-analysis of the deposited data

How the results depend on the processing

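The count of 2930 calls, 1587 above and 1343 below the additive expectation, stayed within 1.5 times under the pseudocount, no filter, the mean-variance and median centring settings. Calls above fell to 980 with a minimum of 5 FPKM, calls below rose to 2172 after quantile normalization, and a fold of 2 left 1522 in all and 361 below. With the adjusted p the counts were 1635, 808 and 827, and with variance by genotype and the adjusted p 69. Leaving out each library in turn gave 2239 to 4386 calls, 1162 to 2492 above and 1077 to 1894 below, with the highest counts when either double knockout library was left out. The LSK minus MEP difference was called in 1129 genes with variance by genotype, in 2 with the adjusted p (0 with both), and in 1482 to 3793 without single mice. Interactions near 0 changed sign: Bcor had -0.044 after quantile normalization, -0.072 after median centring and -0.13 to 0.30 without single libraries, and Dnmt3a -0.37, -0.044 and -0.30 to 0.52, and -0.0066 on the FPKM scale. Without single libraries Pcna ran from -0.30 to 0.20, Gata1 from -1.48 to 0.25 and Parp1 from -1.12 to 0.10. Gm12191, Ccl5 and Csf2rb were among the named genes that lost their unadjusted call with variance by genotype. The cause of these shifts was not tested. The replicate numbers mark different mice, and deviations of same-numbered libraries correlated between -0.19 and 0.34, over 0.1 in 8 of 13 pairs, with the same number the best match in 9 of 13. These pairs are not independent. With 2 libraries per genotype the deviations mirror each other, so both pairs of Bcor-/- with the double knockout share 1 value (0.137). The numbers were not taken to pair the samples, since not every pair was over 0.1. A replicate block gave 2913 calls (1601 and 1312), or 1256 with the adjusted p. Depth limits low genes, and counts are not given.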
